A study of Mus musculus with 48 samples.

Results

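Cdh1, Cd44, Icam1 and Nanog are the genes behind the markers with which reprogramming cells were sorted, and their mRNA was read here in every library of the series. E-cadherin (E-CAD, the product of Cdh1), CD44 and ICAM1 were stained on the cell surface, and Nanog was followed through a green fluorescent protein (GFP) reporter at the Nanog locus. The members were chosen by symbol, as the genes of the sorting markers, and are 4 of the 24264 transcript rows of the count table. The question was whether the mRNA of each gene followed the gate named after it.

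Mouse embryonic fibroblasts (MEFs) were reprogrammed with a doxycycline-inducible cassette, either MKOS or OKMS, which carry Myc, Klf4, Oct4 (Pou5f1) and Sox2 in the order of their letters. The cassettes also differ in Klf4, which is a long form in MKOS and in OKMS a short form that lacks N-terminal amino acids. The study reports less KLF4 protein from cassettes with the short form. Either cassette sat in an intron of Sp3 in embryonic stem cells (ESCs) of the TNG line, which hold Nanog-GFP at one Nanog allele, and the transgenic MEFs came from chimeric embryos made with these cells. The reprogramming cultures received doxycycline and vitamin C in medium with LIF, transgenic MEFs being the minority among wild-type MEFs. Their sorted populations are 2NG- (CD44- ICAM1- Nanog-GFP-), 3NG- (CD44- ICAM1+ Nanog-GFP-) and 3NG+ (CD44- ICAM1+ Nanog-GFP+). The study's text describes these gates as low CD44, with low ICAM1 in 2NG- and high ICAM1 in 3NG- and 3NG+. The sign - for CD44 and ICAM1 thus includes low staining. The series describes the populations as day 10, whereas the culture label of the libraries reads 10 or 15 days. In MKOS, 2NG-, 3NG- and 3NG+ were E-CAD+, and in OKMS 2NG- and 3NG- were taken as E-CAD+ and as E-CAD- beside an E-CAD+ 3NG+, which makes 8 sorted populations with 3 libraries each. The other 12 conditions had 2 libraries each: MKOS, OKMS and wild-type (WT) MEFs, MKOS and OKMS iPSC clones without doxycycline (-dox) or in 2i medium, the D6 iPSC line, and TNG, TNG MKOS, TNG OKMS and E14 ESCs, of which E14 lacks the reporter. No CD44+ sorted population was analysed here, so the CD44 gate was read against the MEFs. The MEF libraries carry no sort label, and MEFs differ from 2NG- cells also in the other gated markers and in cassette induction. By the study's methods MEFs were grown in medium with FGF2, unlike the reprogramming cultures. The CD44 gate cannot be told apart from these differences.

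E-cadherin is the adhesion molecule that joins epithelial cells through their junctions, and its gain marks the change of fibroblasts to an epithelial state in reprogramming. CD44 is a receptor for hyaluronan that fibroblasts carry at high density, and ICAM1 is an adhesion molecule bound by leukocyte integrins, which fibroblasts and pluripotent cells both carry. Nanog is a homeodomain transcription factor of the pluripotency network, silent in fibroblasts. The gates stand for loss of CD44, gain of ICAM1 and activation of Nanog, and surface protein or GFP can outlast or lag the mRNA.

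Of the members, Cdh1 (gene ID 12550) lies on the plus strand of chromosome 8 at 106603350 to 106670247 of GRCm38, Cd44 (12505) on the minus strand of chromosome 2 at 102811141 to 102901669, Icam1 (15894) on the plus strand of chromosome 9 at 21015940 to 21028814, and Nanog (71950) on the plus strand of chromosome 6 at 122707489 to 122714633. Of the reads given to Nanog 92.3% had a single genome position. The rest were multireads, so a part of its count is uncertain. Nanog is known to have processed pseudogenes, but where these reads map was not tested. For the other members, 99.99% of Cdh1 reads and 100% of Cd44 and Icam1 reads had a single position. Whether reads from the GFP allele enter the Nanog row is not given in the sources used here. The libraries hold 5′ ends of transcripts, so the sequence before the start is shown for Icam1 and Nanog, which changed across the ICAM1 and the Nanog-GFP gate in OKMS. The lines give the 250 bases before the RefSeq start on the plus strand of GRCm38.p6, chr9:21015690-21015939 and chr6:122707239-122707488, with capitals on the motifs found.
Icam1: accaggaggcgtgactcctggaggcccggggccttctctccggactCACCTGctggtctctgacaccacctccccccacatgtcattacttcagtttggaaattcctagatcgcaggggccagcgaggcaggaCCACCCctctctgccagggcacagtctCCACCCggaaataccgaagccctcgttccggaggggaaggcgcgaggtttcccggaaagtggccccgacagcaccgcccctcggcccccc
Nanog: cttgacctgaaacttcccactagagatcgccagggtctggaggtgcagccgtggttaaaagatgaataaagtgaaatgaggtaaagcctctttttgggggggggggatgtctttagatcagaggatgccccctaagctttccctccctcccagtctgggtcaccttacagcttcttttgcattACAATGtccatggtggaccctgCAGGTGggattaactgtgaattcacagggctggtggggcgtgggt

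Of the members, 3 of 4 matched a promoter entry of 300 bases (250 before and 50 after the start), and Cdh1 had no entry. The motifs searched on both strands were the E-box CAGGTG, the octamer ATGCAAAT, the SOX core ACAATG, the KLF box CCACCC, the TATA box TATAAA and the NF-kB motif. The E-box, the target letters of ZEB and SNAIL repressors, was found 204 bases before the start of Icam1 and 45 before that of Nanog, and 20.2% of the 32851 promoters hold it. The KLF box, held by 31.5% of promoters, stood 117 and 90 bases before the start of Icam1 and 26 after that of Nanog. The SOX core, held by 12.6%, was found 67 bases before the start of Nanog, and the TATA letters, held by 13.6%, 13 bases after the RefSeq start of Icam1. Neither the octamer nor the NF-kB motif, held by 1.74% and 4.51% of promoters, was found in the 3 promoters, and the Cd44 promoter held none of the motifs. The NF-kB pattern begins with GGG on one strand, and sites that depart from it, as kappaB sites of ICAM1 promoters are known to do, were not searched. The octamer was searched in its exact letters only, on the other strand ATTTGCAT. The letters ttttgcat just before the SOX core of Nanog depart from it and were not counted. The matches given describe the letters of the window.

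Values are CPM, the reads of a transcript in each 1000000 reads on transcripts. The 48 libraries held 1429717 to 14174725 such reads, with a median of 6243254, and 3 reads, taken as the limit of detection, equalled 0.212 to 2.10 CPM. Intervals given for ratios of reads cover counting error only, because PCR copies were not marked. Nothing says that libraries of one condition came from separate cultures, so p-values measure the spread between libraries, which may be technical. Tests are edgeR's quasi-likelihood test over all 48 libraries, with false discovery rates (FDR) over 15630 transcripts and changes called at an FDR of at most 0.05. Log2 changes are given ± SE. With 2 or 3 libraries a group, ranges can lie apart without a change, and the share of all transcripts with ranges apart was not counted. Fibroblast transcripts were not at 0 in any sorted library: the summed CPM of 8 fibroblast markers (such as Col1a1, Thy1 and Postn) was 2953 to 5428 in MEFs, 72.6 to 979 in sorted cells, 6.23 to 30.6 in iPSCs and 5.23 to 11.7 in ESCs. In RNA of whole populations, fewer cells of a type and less RNA per cell cannot be told apart.

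The 4 genes were high and low in different conditions. Cd44 was highest in OKMS MEFs, at 306.6 ± 77.7 CPM (SD, n = 2), and lowest in E14 ESCs, at 0.389 ± 0.200 CPM (n = 2), with the sorted populations between 10.9 and 133 CPM. Of the 19 pairs of neighbours in this order 17 overlapped, the exceptions being OKMS MEFs above OKMS E-CAD- 3NG- cells and MKOS iPSCs -dox above OKMS iPSCs in 2i. Cdh1 was at 0 to 0.687 CPM in the 6 MEF libraries, at 4.24 to 51.5 CPM in the 6 E-CAD- libraries and at 50.8 to 204 CPM in the others. MEF and E-CAD- libraries did not overlap, and of the others 1 TNG OKMS ESC library reached down to the highest E-CAD- library. By group means, no E-CAD+, iPSC or ESC condition had less Cdh1 than TNG ESCs, at 69.8 ± 11.1 CPM (n = 2).

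Icam1 had its lowest group means in 2NG- cells. It stood at 4.75 to 36.0 CPM in MEFs, of which WT MEFs (4.75 and 5.74) and 1 OKMS MEF library (5.57) were the low ones, at 34.4 to 103 CPM in the 8 libraries of cassette iPSCs and at 9.85 to 56.7 CPM in the 8 ESC libraries, while the 9 2NG- libraries held 0 to 4.34 CPM, 77 reads in all, with 4 of 9 at 0. Nanog had no read in any of the 6 MEF libraries, which allows up to 0.665 CPM in the shallowest of them. It stood at 7.59 to 75.7 CPM in the 18 Nanog-GFP- libraries and at 51.1 to 97.3 CPM in the 6 3NG+ libraries. Its highest level was 315.8 and 285 CPM in the D6 iPSC libraries, apart from the next condition, OKMS iPSCs in 2i at 184 ± 39.6 CPM (n = 2). In the Icam1 order 16 of 19 neighbour pairs overlapped, as did 16 in the Cdh1 order and 17 in the Nanog order.

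**Figure D1:**
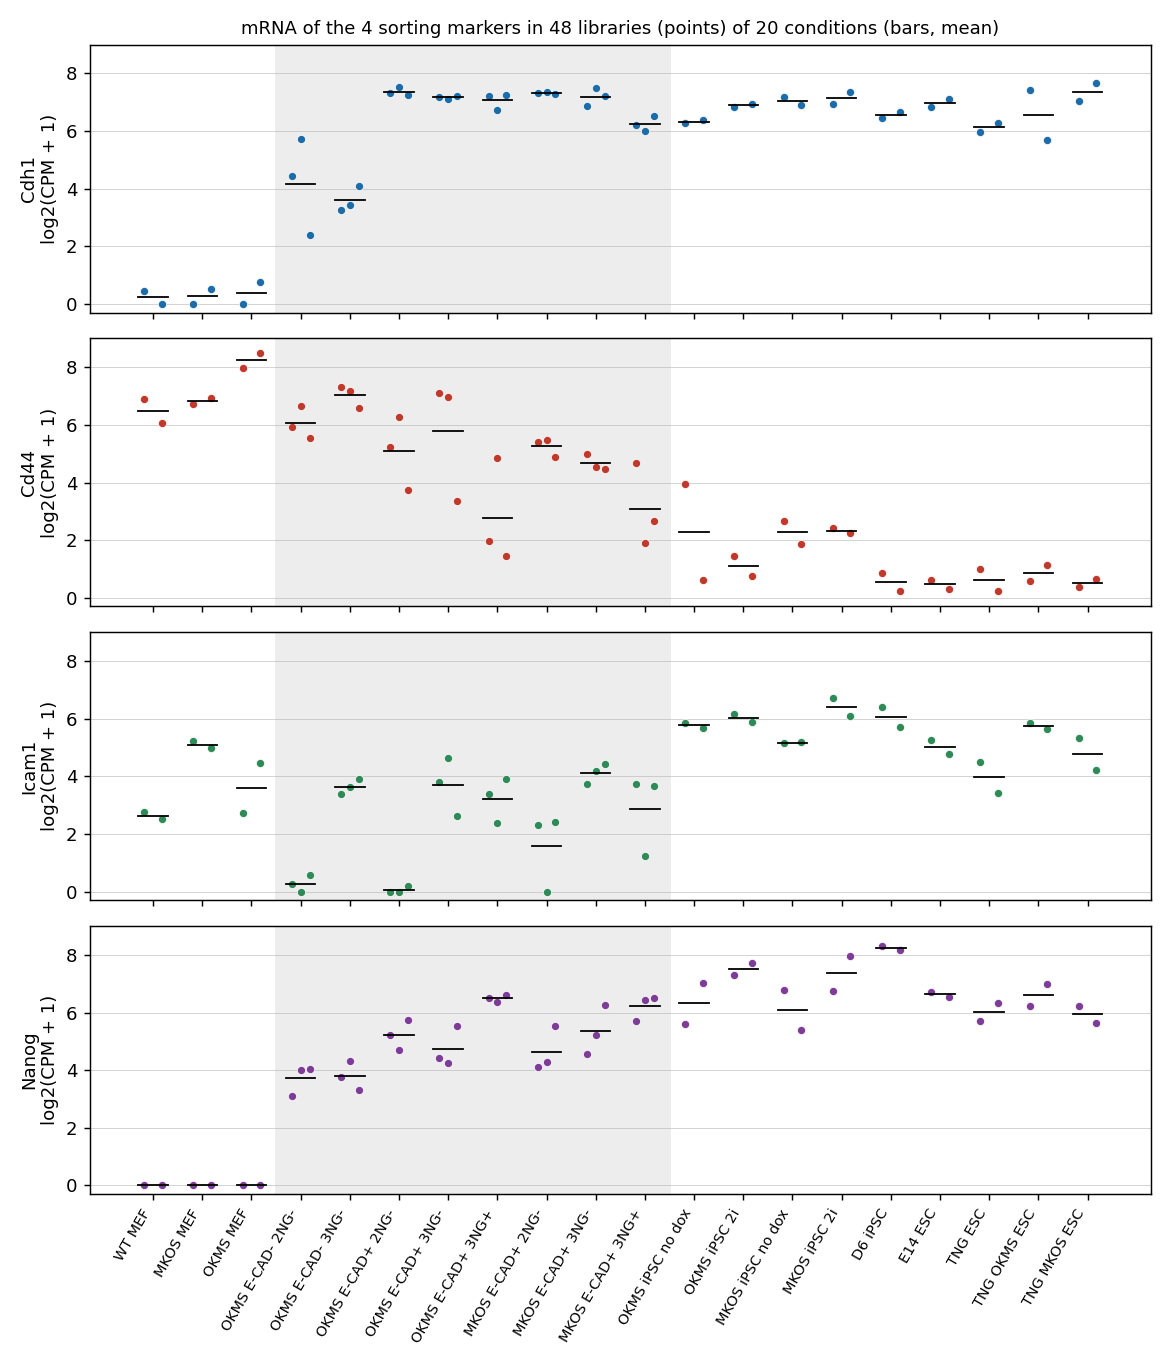
Levels of Cdh1, Cd44, Icam1 and Nanog as log2(CPM + 1), 1 point per library and a bar at the mean of these values in each of the 20 conditions, with sorted populations shaded grey. Cdh1 is low in MEFs and E-CAD- cells, Cd44 falls from MEFs to ESCs, Icam1 is lowest in 2NG- cells, and Nanog is at 0 in the 6 MEF libraries.

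The ICAM1 gate separated 3NG- from 2NG- cells, and Icam1 mRNA was higher on the ICAM1+ side in all 3 comparisons, with no overlap between libraries. In OKMS E-CAD+ cells Icam1 was 0, 0 and 0.141 CPM in the 2NG- libraries, 2 reads in all, and 12.9, 23.8 and 5.18 CPM in the 3NG- libraries. Every 3NG- library thus stood well above every 2NG- library, and the ratio of pooled reads, scaled by depth, was 157 (95% exact interval 42.9 to 1300). The log2 change was 7.01 ± 0.99 (FDR 0.000189), where 0.0384% of all transcripts were called. Icam1 was 1 of 6 transcripts called across this gate, a count that ran from 1 to 55 when 1 library was left out, with 55 called without 2NG- replicate 3.

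In OKMS E-CAD- cells Icam1 was 0.190, 0 and 0.489 CPM in 2NG- and 9.41, 11.5 and 13.9 CPM in 3NG-. The 2NG- libraries, with 4 reads among them, all stood below the lowest 3NG- library. The change was 5.29 ± 0.91 (FDR 0.00400), where 0.0448% of transcripts were called, and the ratio of pooled reads was 40.1 (15.3 to 149). In MKOS Icam1 was 3.98, 0 and 4.34 CPM in 2NG-, with 71 reads in all, and 12.4, 17.2 and 20.4 CPM in 3NG-. The ranges were apart and the means differed 6.01-fold. The log2 change of 2.45 ± 0.61 (95% interval 1.22 to 3.68) was not called at an FDR of 0.0565, where 0.390% of transcripts were. DESeq2 called it, at an FDR of 0.0165.

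The difference between the MKOS and OKMS E-CAD+ steps was -4.57 ± 1.26 on the log2 scale (95% interval -7.12 to -2.02, FDR 0.451), and 0.0192% of transcripts were called for such a difference. It was not called for Icam1, and it rests on the 2 reads of the OKMS 2NG- libraries. Between the OKMS E-CAD+ and E-CAD- steps the Icam1 difference was 1.72 ± 1.76 (95% interval -1.83 to 5.28, FDR 1.00), where 0.0128% of transcripts were called. None of the other members was called across an ICAM1 gate by edgeR or DESeq2, and 1 of their 9 values, for Cdh1 in OKMS E-CAD- cells, had an unadjusted p under 0.05. The Cd44 difference was -0.68 ± 0.70 in MKOS, 1.11 ± 0.70 in OKMS E-CAD+ and 0.95 ± 0.69 in OKMS E-CAD- cells (FDR 0.967, 0.977 and 0.868). For Cdh1 the OKMS E-CAD- difference was -1.14 ± 0.44 (FDR 0.717), with 20.5, 51.5 and 4.24 CPM in 2NG- and 8.59, 9.76 and 16.1 CPM in 3NG-.

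The pathway of ICAM1 was represented by 11 tested genes for its family (Icam2, Icam4, Icam5, Vcam1), its leukocyte integrin ligands (Itgal, Itgam, Itgb2) and regulators of NF-kB, the factor that induces Icam1 in inflammation. edgeR called none of them across any of the 3 ICAM1 gates, and neither did DESeq2, while 1 of 11 in MKOS, 2 in OKMS E-CAD+ and 2 in OKMS E-CAD- cells had an unadjusted p under 0.05. Their median log2 change, with genes at 0 in a group set at their bound, was 0.10 in MKOS, 0.66 in OKMS E-CAD+ and 0.46 in OKMS E-CAD- cells, beside a median of 0.00 over all transcripts in each. Of the 14 Nanog partners and regulators, 1 was called across the MKOS gate, Sox2, a pluripotency factor that the cassettes also carry, at 1.63 (FDR 0.0313). DESeq2 called 2 of them there, and in OKMS neither tool called any, with 1 and 3 of 14 at an unadjusted p under 0.05 in E-CAD+ and E-CAD- cells.

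The E-CAD gate was available in OKMS, and Cdh1 followed it in both comparisons. In 2NG- cells Cdh1 was 20.5, 51.5 and 4.24 CPM in the E-CAD- libraries and 159, 182 and 152 CPM in the E-CAD+ libraries. The E-CAD- libraries were spread widely and still all lay below the E-CAD+ libraries, which were close together. The means differed 6.48-fold and the log2 change was 2.87 ± 0.43 (FDR 5.26e-05), where 2.38% of transcripts were called. In 3NG- cells Cdh1 was 8.59, 9.76 and 16.1 CPM against 144, 137 and 147 CPM, again without overlap. The means differed 12.4-fold and the change was 3.76 ± 0.46 (FDR 1.38e-06), where 1.75% of transcripts were called.

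Cdh1 mRNA in E-CAD- cells was low but not at the level of the MEFs. The OKMS MEFs held 6 Cdh1 reads in all, and the E-CAD- 2NG- cells stood 46.7-fold above them in pooled reads (21.2 to 128), with a log2 change of 5.84 ± 0.74 (FDR 1.76e-07), where 21.8% of transcripts were called from OKMS MEFs to these cells. In MKOS, where all populations were E-CAD+, Cdh1 was 158, 161 and 156 CPM in 2NG- and 116, 178 and 147 CPM in 3NG-, with the 2NG- values inside the 3NG- range. In 3NG+ it was 72.4, 62.6 and 91.5 CPM in MKOS and 150, 106 and 151 CPM in OKMS. The MKOS 3NG+ libraries lay below all MKOS 3NG- libraries, with a difference of -0.78 ± 0.40 (FDR 0.325), and below all OKMS 3NG+ libraries, with one of -1.01 ± 0.40 (FDR 0.273), but neither was called.

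Some genes of a list of cadherins, catenins, epithelial junction genes and Esrp1 rose with Cdh1. The cadherins of the list include Cdh2 and Cdh11. Of 12 tested, 5 were higher in E-CAD+ than E-CAD- 2NG- cells and 0 lower, beside 1.69% and 0.691% of all transcripts, with a median log2 change of 0.98 against 0.00. They were the tight junction protein Cldn6 (4.04), the epithelial splicing factor Esrp1 (3.40), the adhesion molecule Epcam (2.90), P-cadherin Cdh3 (2.75) and the catenin Ctnna1 (0.75). DESeq2 called 5 of the list higher and 1 lower in this comparison. In 3NG- cells 4 of 12 rose and 0 fell (median 0.75), beside 1.59% and 0.166% of all transcripts. They were Cldn6 (4.10), Esrp1 (3.64), Epcam (3.14) and Cdh3 (2.15). Of 5 repressors of Cdh1 transcription, Zeb1 (-3.48) and Zeb2 (-3.36) were lower in E-CAD+ 2NG- cells and Zeb1 (-2.24) in E-CAD+ 3NG- cells, while Snai1, Snai2 and Twist1 were not called in either.

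Nanog, for which the E-CAD gate did not select, was also called across it in 2NG- cells. In 2NG- cells it was 7.59, 15.1 and 15.7 CPM in the E-CAD- and 36.0, 24.8 and 52.8 CPM in the E-CAD+ libraries. The groups did not overlap, and the change of 1.77 ± 0.49 was called (FDR 0.0385). It was not called without any one of 5 of the 6 libraries (FDR over 0.05), and kept its call without OKMS E-CAD+ 2NG- replicate 2 (FDR 0.0286), with log2 changes of 1.39 to 2.02. In 3NG- cells Nanog was 12.6, 18.8 and 8.98 CPM against 20.3, 17.9 and 45.0 CPM, which overlapped, with a difference of 1.16 ± 0.49 (FDR 0.298). The Cd44 difference across the E-CAD gate was -0.64 ± 0.70 in 2NG- and -0.48 ± 0.68 in 3NG- cells (FDR 0.754 and 0.858), and that of Icam1 in 3NG- cells was 0.37 ± 0.58 (FDR 0.880). Of the 14 Nanog partners and regulators 6 rose and 0 fell in 2NG- (median 1.37), beside 1.69% and 0.691% of all transcripts. Among them were the orphan receptor Esrrb (4.96), Dppa3 (4.0) and the transcription factor Tfcp2l1 (3.40), and Nr5a2 rose from 1 read to 65. In 3NG- 6 rose and 0 fell (median 1.99), beside 1.59% and 0.166%, with Dppa3 (4.84), Zfp42 (3.73), Esrrb (3.72) and Tfcp2l1 (2.58) in the lead.

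Some markers of other cell types moved across the same gate. The fibroblast sum was 585, 568 and 714 CPM in E-CAD- and 72.6, 130 and 283 CPM in E-CAD+ 2NG- cells, and 695, 510 and 923 against 277, 280 and 161 CPM in 3NG- cells. Of the 8 fibroblast markers 3 collagens fell in 2NG- and 1 in 3NG- cells, beside 0.691% and 0.166% of all transcripts. DESeq2 called 3 of the 8 lower in 2NG- and 0 in 3NG- cells. The summed CPM of 6 keratinocyte markers was 2.77 to 21.6 in the OKMS E-CAD- libraries. In OKMS E-CAD+ cells it was 49.2 to 179 in 2NG- and 42.6 to 148 in 3NG-. In MKOS, which has no E-CAD- side, it was 309 to 542 in 2NG- and 235 to 424 in 3NG-. Sfn, a gene of stratified epithelium, was called across the gate in 2NG- (3.04) and 3NG- (3.50). This sum came mainly from Sfn, with a median of 192 CPM over the E-CAD+ Nanog-GFP- libraries of both cassettes together. The medians there were 12.7 CPM for Krt14, 0.582 for Krt5, 0.164 for Dsg3 and 0 for Krt15 and Trp63. Of the endothelial markers Pecam1, which pluripotent cells also express, was at 0 in the 3 E-CAD- 2NG- libraries and had 50 reads in E-CAD+ 2NG- cells. Kdr and Emcn went the other way, with reads in E-CAD- and none in E-CAD+ 2NG- cells. The endothelial sums overlapped, at 10.6 to 19.2 CPM in E-CAD- and 5.22 to 17.9 CPM in E-CAD+ 2NG- cells. Of the 6 leukocyte and 6 primitive endoderm markers none was called by edgeR or DESeq2 in either comparison, and 2 primitive endoderm markers had an unadjusted p under 0.05 in 2NG- cells. The part of these transcripts in the Cdh1 and Nanog differences was not tested.

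The Nanog-GFP gate separated 3NG+ from 3NG- cells. In OKMS Nanog was 20.3, 17.9 and 45.0 CPM in E-CAD+ 3NG- and 90.0, 81.8 and 97.3 CPM in 3NG+, so that every GFP+ library lay above every GFP- library. The means differed 3.24-fold and the change was 1.90 ± 0.47 (FDR 0.0110), where 6.26% of transcripts were called. The call was lost without OKMS E-CAD+ 3NG- replicate 1 (1.69, FDR 0.0823) or replicate 2 (1.68, FDR 0.0915). In MKOS Nanog was 22.3, 36.4 and 75.7 CPM in 3NG- and 51.1, 86.3 and 90.7 CPM in 3NG+. These ranges overlapped, because 3NG- replicate 3 held more Nanog than 3NG+ replicate 1. Within each replicate number Nanog was higher in 3NG+ than in 3NG-, though the numbers are not known to pair libraries. With replicate numbers as a block Nanog was not called here either. The difference of 0.97 ± 0.45 (95% interval 0.06 to 1.89) was not called (FDR 0.282), where 1.58% of transcripts were. It was 1.58 (FDR 0.105) without 3NG- replicate 3.

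Nanog mRNA was also present in the GFP- cells. All 18 Nanog-GFP- sorted libraries held Nanog reads, against 0 reads in the 6 MEF libraries. Pooled reads, scaled by depth, were set against the limit of 3 reads over the MEF libraries of the cassette. By this measure Nanog was at least 124-fold higher in MKOS 2NG-, 211-fold in OKMS E-CAD+ 2NG- and 59.2-fold in OKMS E-CAD- 2NG- cells. The difference between the MKOS and OKMS steps over the Nanog-GFP gate was -0.93 ± 0.64 (95% interval -2.23 to 0.37, FDR 0.823), where 0.0256% of transcripts were called. From 3NG+ to iPSCs without doxycycline the Nanog difference was -0.06 ± 0.50 in MKOS and -0.07 ± 0.50 in OKMS (FDR 1.00 in both), with 95% intervals of -1.08 to 0.95 and -1.09 to 0.95.

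Some partners and regulators of Nanog rose with it in OKMS. Of 14 tested 6 rose and 0 fell across the OKMS gate, beside 3.06% and 3.21% of all transcripts, with a median of 1.88 against -0.06. They were the T-box factor Tbx3 (3.77), Zfp42 (2.81), Esrrb (2.35), Klf2 (2.22), Sox2 (1.91) and Pou5f1 (1.36), the last a pair that the cassettes also carry. In MKOS none of the 14 was called by edgeR or DESeq2, with 3 of 14 at an unadjusted p under 0.05, and the median was 0.51 against -0.04. Of the 8 fibroblast markers none was called by either tool across a Nanog-GFP gate, with 2 in MKOS and 0 in OKMS at an unadjusted p under 0.05. Their sum was 979, 542 and 706 CPM in MKOS 3NG- and 586, 101 and 404 CPM in MKOS 3NG+.

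Markers of other cell types also differed between the sides of the Nanog-GFP gates. The primitive endoderm sum was 26.9, 22.6 and 69.2 CPM in OKMS E-CAD+ 3NG- and 8.07, 8.39 and 7.73 CPM in 3NG+, and 17.9, 15.6 and 9.48 against 8.62, 3.16 and 3.19 CPM in MKOS. The ranges were apart in both, and edgeR called none of the 6 markers, with 1 of 6 in each at an unadjusted p under 0.05, while DESeq2 called 1 lower in OKMS. The keratinocyte sum was 391.6, 424 and 235 CPM in MKOS 3NG- and 151, 59.7 and 109 CPM in 3NG+, which were apart, and 143, 148 and 42.6 against 25.1, 53.9 and 45.1 CPM in OKMS, which overlapped. Of 5 tested keratinocyte markers edgeR and DESeq2 called none in MKOS, with 3 at an unadjusted p under 0.05, and each called 1 lower in OKMS, which for edgeR was the keratin Krt14 (212 reads against 0). Of 4 tested endothelial markers Pecam1 rose in OKMS (3.05, FDR 0.0204), and none was called in MKOS by either tool, with 2 at an unadjusted p under 0.05. Kdr went the other way in OKMS, with reads in E-CAD+ 3NG- and none in 3NG+. The OKMS endothelial sums overlapped, at 5.89 to 20.6 CPM in E-CAD+ 3NG- and 6.58 to 14.6 CPM in 3NG+. Of the 6 leukocyte markers none was called by either tool or had an unadjusted p under 0.05. The part of these transcripts in the Nanog and Cd44 differences was not tested.

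Cd44 mRNA fell across the OKMS Nanog-GFP gate, where both populations were sorted from the gate of low CD44. It was 135, 125 and 9.18 CPM in E-CAD+ 3NG- and 2.90, 28.0 and 1.72 CPM in 3NG+. The groups overlapped, since 3NG- replicate 3 lay below 3NG+ replicate 2. Within each replicate number Cd44 was lower in 3NG+ than in 3NG-, though the numbers are not known to pair libraries. The change was -3.31 ± 0.82 (FDR 0.0106). The call was lost without 3NG- replicate 1 (-2.92, FDR 0.0548), 3NG- replicate 2 (-2.99, FDR 0.0536), 3NG+ replicate 1 (-2.73, FDR 0.101) or 3NG+ replicate 3 (-2.64, FDR 0.0852), and without 3NG+ replicate 2 the change was -5.01 (FDR 0.000709). In MKOS Cd44 was 30.9, 22.0 and 21.1 CPM in 3NG- and 24.6, 2.77 and 5.34 CPM in 3NG+, with a difference of -1.10 ± 0.73 (FDR 0.477). The difference between the cassettes' steps was 2.22 ± 1.08 (FDR 0.659). For Icam1, whose protein both sides of this gate carried, the difference was -0.81 ± 0.57 in MKOS and -0.26 ± 0.58 in OKMS (FDR 0.507 and 0.856).

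**Figure D2:**
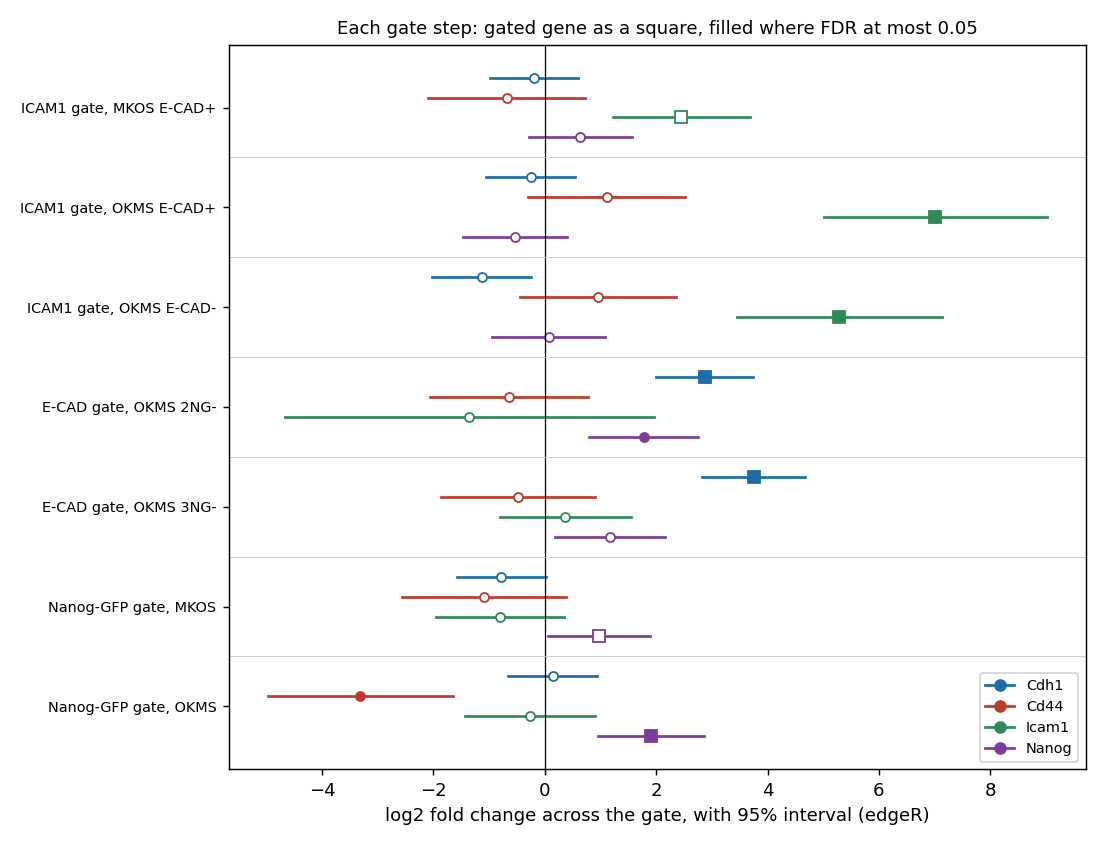
Log2 fold change of the 4 genes across each gate, with lines for the 95% interval by edgeR, the gene named after the gate as a square, and filled symbols where the FDR was at most 0.05. Squares are filled for Icam1 in both OKMS comparisons, for Cdh1 in both and for Nanog in OKMS, and open in MKOS, where Icam1 lies at 2.45 and Nanog at 0.97. Filled circles mark Nanog across the E-CAD gate in 2NG- cells and Cd44 across the OKMS Nanog-GFP gate.

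Cd44 mRNA was detected in all 24 sorted libraries, which came from gates of low CD44, at 1.72 to 159 CPM. It stood at 65.4 to 362 CPM in MEFs and 0.174 to 1.20 CPM in ESCs. In MKOS Cd44 was 104 and 123 CPM in MEFs and 41.1, 43.8 and 28.3 CPM in 2NG- cells. Every 2NG- library lay below both MEF libraries, the mean being 3.00-fold lower, but the difference of -1.62 ± 0.76 was not called (FDR 0.108), where 27.0% of transcripts were. In OKMS the MEFs held 252 and 362 CPM, against 36.8, 75.8 and 12.5 CPM in E-CAD+ 2NG- and 59.8, 100.2 and 46.1 CPM in E-CAD- 2NG- cells. Both populations lay wholly below the OKMS MEFs, with log2 changes of -2.83 ± 0.77 (FDR 0.00464, 7.36-fold in the means), where 29.2% of transcripts were called, and -2.18 ± 0.76 (FDR 0.0333, 4.46-fold).

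The E-CAD- call was the less stable of these. It was lost without OKMS E-CAD- 2NG- replicate 1 (-2.13, FDR 0.0897) or 3 (-1.94, FDR 0.118), without OKMS MEF replicate 1 (-2.33, FDR 0.0738) or 2 (-2.03, FDR 0.143), and with DESeq2 (-2.24, FDR 0.0784). Against WT MEFs, at 119 and 65.4 CPM, Cd44 in the same cells differed by -0.51 ± 0.76 (FDR 0.717, 95% interval -2.05 to 1.02), where 16.1% of transcripts were called, a comparison chosen after the data were seen. The difference of the MKOS and OKMS E-CAD+ steps from MEFs was 1.21 ± 1.09 (FDR 0.719), where 1.35% of transcripts were called. These comparisons share their MEF and 2NG- libraries with each other.

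Comparisons of Cd44 in later populations with MEFs were also chosen after the data were seen. OKMS 3NG- cells held 159, 145 and 96.1 CPM when E-CAD- and 135, 125 and 9.18 CPM when E-CAD+, against 30.9, 22.0 and 21.1 CPM in MKOS. From MEFs to 3NG- Cd44 fell in MKOS (-2.30 ± 0.77, FDR 0.0227), where 25.5% of transcripts were called. The difference was -1.72 ± 0.75 in OKMS E-CAD+ (FDR 0.0891) and -1.23 ± 0.75 in OKMS E-CAD- cells (FDR 0.270), where 24.6% and 17.6% were, and whether the steps differ between the cassettes was not tested. Against WT MEFs the OKMS E-CAD- 3NG- cells differed by 0.44 ± 0.77 (FDR 0.795), where 13.0% of transcripts were called. From MEFs to 3NG+ Cd44 fell in both cassettes, with log2 changes of -3.40 ± 0.80 in MKOS (FDR 0.000863) and -5.03 ± 0.89 in OKMS (FDR 1.84e-05), where 36.8% and 37.3% of transcripts were called. In a planned comparison of MKOS with OKMS, Cd44 in E-CAD+ 3NG- cells differed by -1.96 ± 0.71 and was not called (FDR 0.156), where 2.17% of transcripts were.

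**Figure D3:**
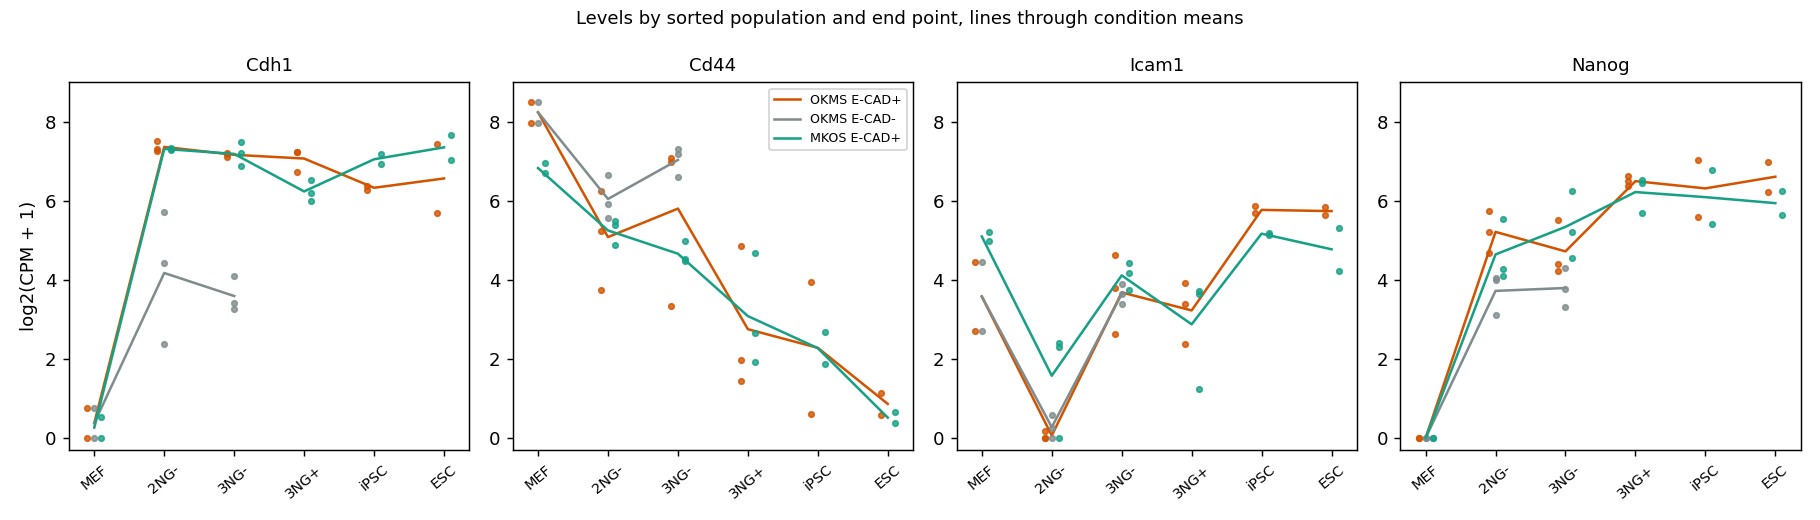
Levels of the 4 genes as log2(CPM + 1), with points for single libraries and lines through condition means, from MEFs through 2NG-, 3NG- and 3NG+ to iPSCs -dox and ESCs, with separate lines for MKOS, OKMS E-CAD+ and OKMS E-CAD-. Cd44 has a mean of 133 CPM in OKMS E-CAD- 3NG- cells, and Icam1 dips at 2NG- in all 3 lines.

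Single libraries stood apart in Cd44. Replicate 3 of the OKMS E-CAD+ 2NG- and 3NG- populations held 12.5 and 9.18 CPM of Cd44, below the other replicates, with fibroblast sums of 283 and 161 CPM, so that the sum was the highest of its group in one and the lowest in the other. OKMS 3NG+ replicate 2 held 28.0 CPM of Cd44 against 2.90 and 1.72 CPM, with a fibroblast sum of 199 CPM between those of its group. MKOS 3NG+ replicate 1 held 24.6 CPM of Cd44 and the highest fibroblast sum of its group, 586 CPM against 101 and 404. OKMS E-CAD- 2NG- and 3NG- libraries held 46.1 to 159 CPM of Cd44 with fibroblast sums of 510 to 923 CPM, while MKOS 2NG- and 3NG- cells had sums of 435 to 979 CPM with Cd44 at 21.1 to 43.8 CPM. The part of fibroblast RNA in the Cd44 values was not tested.

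**Figure D4:**
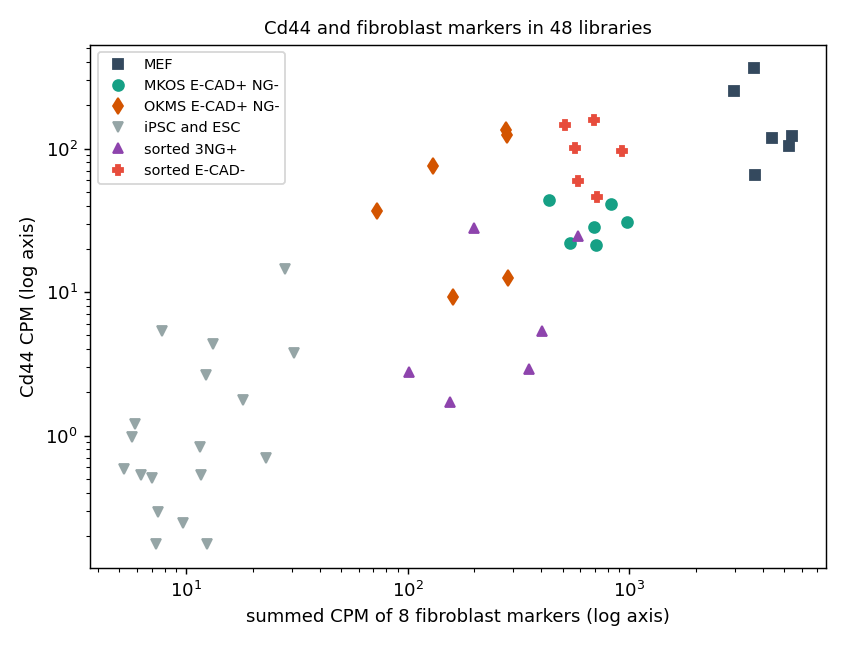
Cd44 CPM against the summed CPM of 8 fibroblast markers, 1 point per library, both axes on a log scale. MEFs lie at the upper right and pluripotent lines at the lower left, and OKMS E-CAD- libraries hold more Cd44 than MKOS Nanog-GFP- libraries at overlapping fibroblast sums.

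Genes of the hyaluronan and ERM pathway of CD44 were called in both directions from MEFs to 2NG- cells. Of 12 tested, 2 rose and 5 fell in MKOS, 2 and 8 in OKMS E-CAD+, and 2 and 7 in OKMS E-CAD- cells. Of all transcripts 15.0%, 15.7% and 11.7% rose and 12.0%, 13.5% and 10.1% fell. The median changes of the list were -0.98, -2.55 and -1.90 when genes at 0 are set at their bound, against 0.00 over all transcripts. The log2 change of the hyaluronan synthase Has2 was -4.94, -3.76 and -2.99 and that of the matrix proteoglycan Vcan -2.99, -3.99 and -1.82 in this order. Has1 had 180 reads in MKOS MEFs and 40 in OKMS MEFs and none in the 2NG- populations. It was -2.35, -3.51 and -2.78 for the protease Mmp14, which cleaves CD44, and -1.35, -4.26 and -2.84 for the cytokine Spp1, a CD44 ligand. The genes that rose were the same in the 3 comparisons, Ezr, which links CD44 to actin, and the hyaluronan receptor Hmmr. Across the E-CAD gate Vcan fell in 2NG- (-2.17) and 3NG- (-1.75) and Spp1 in 2NG- (-1.42), and across the Nanog-GFP gate Msn fell in MKOS (-1.55), and Adam10 fell (-1.82) and Spp1 rose (1.67) in OKMS.

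The other members were also called from MEFs to 2NG- cells. Cdh1 rose in MKOS (FDR 2.40e-11) and in OKMS E-CAD+ cells (FDR 2.65e-11) from MEFs with 2 and 6 reads, with ratios of pooled reads of 1130 (313 to 9332) and 372 (171 to 1014). Icam1 was 36.0 and 30.8 CPM in MKOS MEFs and 5.57 and 20.8 CPM in OKMS MEFs, all above the 2NG- libraries. It fell in MKOS (-3.59 ± 0.66, FDR 4.99e-05), OKMS E-CAD+ (FDR 1.66e-06) and OKMS E-CAD- cells (-5.51 ± 0.93, FDR 2.19e-05), the OKMS E-CAD+ libraries having 2 reads against 212 in the MEFs. In 3NG- its difference from the MEFs was -1.14 ± 0.60, 0.15 ± 0.63 and -0.22 ± 0.64 (FDR 0.163, 0.911 and 0.895). Of the list of cadherins, catenins and junction genes 7, 4 and 3 of 12 rose and 3, 2 and 4 fell from MEFs. Of all transcripts 15.0%, 15.7% and 11.7% rose and 12.0%, 13.5% and 10.1% fell. Epcam had no read in MKOS MEFs and 1697 in MKOS 2NG- cells. Of the 5 Cdh1 repressors 4, 5 and 3 fell and 0 rose. The log2 change of Snai1 was -4.05, -7.67 and -5.54 and that of Twist1 -4.35, -4.52 and -3.33. Zeb1 fell in MKOS (-3.29) and OKMS E-CAD+ cells (-4.93) and was not called in OKMS E-CAD- cells.

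The remaining lists gave the following counts from MEFs to MKOS, OKMS E-CAD+ and OKMS E-CAD- 2NG- cells, where 15.0%, 15.7% and 11.7% of all transcripts rose and 12.0%, 13.5% and 10.1% fell. Of the 14 Nanog partners 9, 8 and 6 rose and 3, 3 and 4 fell. Of the 11 ICAM and NF-kB genes 0, 1 and 1 rose and 2, 4 and 4 fell, with log2 changes of -4.72, -4.67 and -2.97 for Vcam1, an adhesion molecule of fibroblasts. Of the 8 fibroblast markers 8, 7 and 6 fell. Of the keratinocyte markers 2, 3 and 0 of 5 rose, of the leukocyte markers 2, 1 and 1 of 6 rose, of the endothelial markers 1, 1 and 0 of 4 rose, and of the primitive endoderm markers 2, 1 and 1 of 6 fell. The leukocyte sum was 8.01 to 223 CPM in sorted cells and 4.20 to 70.5 CPM in MEFs, the endothelial sum 3.39 to 27.9 CPM in sorted cells, and the primitive endoderm sum 62.7 to 85.3 CPM in MEFs and 3.16 to 69.2 CPM in sorted cells. In MEFs the primitive endoderm sum came mainly from Dab2 (median 55.4 CPM) and Gata6 (19.0 CPM), while Sox17 and Foxa2 had no read.

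Between cassettes at the same stage, Icam1 in E-CAD+ 2NG- cells was the value called. It was higher in MKOS than in OKMS by 4.70 ± 1.08 (FDR 0.00530), where 5.07% of transcripts were called, with 71 reads against 2 and a ratio of pooled reads of 34.3 (9.15 to 289). The ranges overlapped, since MKOS 2NG- replicate 2 was at 0. In MEFs, before reprogramming, Icam1 was 36.0 and 30.8 CPM in MKOS and 5.57 and 20.8 CPM in OKMS, and Cd44 was 104 and 123 CPM against 252 and 362 CPM. Neither gene's MEF libraries overlapped, which with 2 libraries a side can occur without a change. Neither difference was called (1.44 ± 0.69, FDR 0.732, and -1.37 ± 0.85, FDR 0.852), where 0.102% of transcripts were. In 3NG+ neither edgeR nor DESeq2 called a member between cassettes, where edgeR called 0.685% of transcripts, and 1 of 4, Cdh1, had an unadjusted p under 0.05.

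At the end points Icam1 had higher values in iPSCs than in 3NG+ cells. In MKOS it was 12.2, 1.38 and 11.6 CPM in 3NG+ and 34.4 and 35.7 CPM in iPSCs -dox, and in OKMS 9.46, 4.20 and 14.2 CPM in 3NG+ and 57.1 and 50.4 CPM in iPSCs -dox. All iPSC libraries lay above all 3NG+ libraries, but the differences of 2.03 ± 0.62 and 2.39 ± 0.62 were not called (FDR 0.0753 and 0.0595), where 2.14% and 0.614% of transcripts were. DESeq2 called the OKMS difference (FDR 0.0285). For Cdh1 the difference was 0.78 ± 0.44 in MKOS and -0.81 ± 0.45 in OKMS (FDR 0.425 and 0.480), with ranges apart in both.

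Between iPSCs -dox and the ESCs of the same cassette, Cdh1, Icam1 and Nanog differed by -0.28 to 0.32 on the log2 scale, with an FDR of 0.929 or more and 95% intervals that reached from -1.25 to 1.65. Cd44 was 5.39 and 2.66 CPM in MKOS iPSCs -dox against 0.293 and 0.582 CPM in TNG MKOS ESCs, a ratio of pooled reads of 10.7 (4.92 to 27.7) from 67 and 7 reads, and 14.4 and 0.534 CPM in OKMS iPSCs -dox against 0.503 and 1.20 CPM. The differences of 3.28 ± 1.31 and 3.27 ± 1.16 were not called (FDR 0.661 and 0.183), where 0.307% and 0.608% of transcripts were, and in OKMS 1 iPSC library carried the difference. In 2i medium Nanog was 107 and 248 CPM in MKOS and 156 and 212 CPM in OKMS iPSCs, against 109 and 41.3 CPM and 47.2 and 131 CPM without doxycycline, differences of 1.20 ± 0.55 and 0.93 ± 0.55 (FDR 0.328 and 0.557), where 1.97% and 0.505% of transcripts were called. E14 ESCs, which have no reporter, did not differ by a called amount from TNG ESCs in Nanog (0.49 ± 0.55, FDR 1.00), where 0.0448% of transcripts were called.

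From MEFs to ESCs, the whole span of the route, the log2 change of Cd44 was -8.02 ± 1.28 in MKOS and -8.38 ± 1.23 in OKMS (FDR 3.68e-06 and 8.39e-07), where 33.3% and 34.4% of transcripts were called. The Icam1 difference was -0.18 ± 0.66 in MKOS (FDR 0.888, 95% interval -1.52 to 1.16), and in OKMS Icam1 rose by 1.97 ± 0.69 (FDR 0.0243). Over the 20 conditions the 3 2NG- populations had the lowest Icam1 means, below those of every MEF and ESC condition.

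Over the 20 condition means of log2(CPM + 1), the transcripts most like each member are given as a description, since conditions share MEFs, ESC lines and depth. Cdh1 ran with Epcam (r = 0.976), Alg13 (0.969) and Tdh (0.967), of which Epcam is an epithelial adhesion molecule and Tdh the threonine dehydrogenase of mouse ESCs. Cd44 ran with the chemokine Ccl7 (0.960), the ephrin Efna5 (0.953) and the chromatin remodeller Smarca2 (0.951). Nanog ran, among others, with Fbxo15 (0.968), a known target of the ESC network, and Wdr5 (0.968). Icam1 had looser neighbours, the basement membrane gene Nid2 (0.872), Klf5 (0.833) and Myst4 (0.829). Among the members, Cdh1 and Nanog had r = 0.91, Cd44 and Nanog -0.81, Cd44 and Cdh1 -0.65, and Icam1 and Cdh1 0.13.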

How the data were processed

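The deposited table holds read counts per transcript for 48 libraries, which the authors made by 5′-end sequencing (STRT) and alignment with Bowtie 0.12.7. Per the file headers, multireads went to the most 5′ exonic hit. The build is named as mm10 in the submitters' processing notes and as an older one in the study's methods, and the positions of the 4 genes match GRCm38. Repeats (14.2 to 33.1% of the reads of a library) and spike-ins were left out of totals and tests.

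Counts were fitted with edgeR 4.0.16 (R 4.3.3; filterByExpr, TMM, 1 coefficient for each of 20 conditions, quasi-likelihood test, two-sided), with Benjamini-Hochberg adjustment over 15630 transcripts. The common dispersion was 0.217. The depth per library and its limit of detection are given with the results. Ratios of pooled reads carry exact binomial intervals (Python 3.11.15). No 2 libraries agreed within sampling noise (lowest chi-square per degree of freedom 13.4). On simulated counts for the ICAM1 gate of OKMS E-CAD+ cells, with 200 of 15007 transcripts changed 4-fold, edgeR called 117, of which 6 were unchanged, and DESeq2 called 148, of which 21 were unchanged.

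The 4 genes and the lists were chosen with earlier results of these data known. Named genes are the members, up to 4 called genes of each partner list in each gate comparison by size of change, and the 3 transcripts most like each member, of which 1 is not reported here. Other cell type markers are named where a comparison turned on them. Alternatives were DESeq2 1.42.0, its size factors, no low-count filter, replicate numbers as a block, 41 libraries, only the compared libraries, and leaving out each library. The refits without 1 library kept the tested transcripts and the dispersion trend of the fit to all libraries. Only the quasi-likelihood dispersions were estimated anew in them. The numbers were not taken to pair libraries, since same-numbered libraries deviated together in 44 of 84 pairs (r over 0.1).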

Additional observations from a re-analysis of the deposited data

How the results depend on the processing

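The comparisons of the 4 genes across the gates named after them, or for Cd44 from MEFs to 2NG- cells, kept their direction under every alternative run. Of 117 alternative values 98 also kept their side of the threshold. Of the other values 8 gained a call and 11 lost one, and 0 reversed. Calls were gained for Icam1 across the MKOS ICAM1 gate with DESeq2 (2.47), without the low-count filter (2.46) and with the replicate block (2.58), for Nanog across the MKOS Nanog-GFP gate without the filter (0.96) and with 41 libraries (1.58), and for Cd44 from MKOS MEFs to 2NG- cells without the filter (-1.67), with the replicate block (-1.65) and with only the compared libraries (-1.59). Calls were lost for Cd44 from OKMS MEFs to E-CAD- 2NG- cells with DESeq2 (-2.24), for Icam1 across the OKMS E-CAD- gate with 41 libraries (6.15, FDR 0.0512) and with only the compared libraries (5.31, FDR 0.105), and with the latter also for Icam1 across the OKMS E-CAD+ gate (7.11, FDR 0.331) and Cdh1 across the E-CAD gate in 2NG- cells (2.83, FDR 0.0576). The fits to the compared libraries had 6 or fewer libraries. The 41 libraries leave out replicate 3 of the 6 Nanog-GFP- populations and OKMS 3NG+ replicate 2. With them, the Nanog change across the E-CAD gate in 2NG- cells was 1.54 (FDR 0.107) and lost its call.

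Leaving out 1 library gave 1.68 to 2.47 for Nanog across the OKMS Nanog-GFP gate and -2.54 to -1.94 for Cd44 from OKMS MEFs to E-CAD- 2NG- cells. These were the only 2 of the 10 comparisons that lost a call so. Because these refits took their dispersion trend from the full fit, a lost call can come from the refit as well as from the library. The ranges were 1.89 to 2.85, 6.42 to 9.56 and 4.96 to 6.31 for Icam1 in MKOS, OKMS E-CAD+ and OKMS E-CAD- cells, 2.33 to 3.83 and 3.58 to 4.06 for Cdh1 in 2NG- and 3NG- cells, 0.67 to 1.58 for Nanog across the MKOS gate, and -1.72 to -1.45 and -3.51 to -2.39 for Cd44 from MEFs to MKOS and OKMS E-CAD+ 2NG- cells.

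Same-numbered libraries had a mean correlation of deviations of 0.12, and 20 of 24 libraries correlated best with their own number, a hint from the data and not from the design. The replicate block changed the calls given above, and it called 91 transcripts across the MKOS ICAM1 gate and 425 across the MKOS Nanog-GFP gate, against 61 and 247 without it.

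The number of all transcripts called depended more on the setting. Across the ICAM1 gates of MKOS, OKMS E-CAD+ and OKMS E-CAD- cells it was 61, 6 and 7, against 103, 17 and 26 with DESeq2, 237, 149 and 104 without the filter, 69, 33 and 3 with 41 libraries, and 122, 0 and 0 with only the compared libraries. Across the E-CAD gate in 2NG- and 3NG- it was 372 and 274, against 843 and 660 without the filter, 290 and 159 with 41 libraries, and 176 and 101 with only the compared libraries. Across the Nanog-GFP gate in MKOS and OKMS it was 247 and 979, against 604 and 1462 with DESeq2, 887 and 1453 without the filter, 559 and 1461 with 41 libraries, and 545 and 428 with only the compared libraries. Leaving out 1 library gave 11 to 48, 1 to 55 and 3 to 11 across the ICAM1 gates, 192 to 432 and 166 to 268 across the E-CAD gate, 57 to 278 and 352 to 1283 across the Nanog-GFP gate, and 2651 to 3715, 2826 to 3968 and 1962 to 2893 from MEFs to MKOS, OKMS E-CAD+ and OKMS E-CAD- 2NG- cells, against 4214, 4569 and 3414. Across the MKOS ICAM1 gate, the E-CAD gate in 3NG- and from MEFs to 2NG- cells, every count without 1 library was below the main count. The part of the different refit in this was not tested. Counts of called list genes are small and moved by 1 to 5 genes under some alternatives, which were chosen after seeing the data. Each condition had 2 or 3 libraries, and the OKMS 2NG- libraries had 2 and 4 Icam1 reads in all. The simulation covered 4-fold changes only, of which edgeR recovered 55.5%, and in it DESeq2 called more unchanged transcripts than edgeR.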
